A study of Mus musculus with 17 samples.

Results

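Lcn2, Lrg1, Steap4, Osmr, Socs3, Saa3, Nfkbia, Stat3 and Cebpd are genes of the acute phase response and of signalling by oncostatin M, a cytokine of the interleukin-6 family. They were taken by symbol from a count table of 55487 genes, and all 9 were found in it; 8 of them passed the filter on low counts and Saa3 did not. The RNA came from whole choroid plexus, the vascularised epithelial tissue that makes cerebrospinal fluid, dissected from the lateral ventricles; the mice were C57BL/6. They had been given dextran sodium sulfate (DSS), which damages colon epithelium and is used as a model of colitis, for 1 day (T1, 4 libraries), for 3 days (T3, 4 libraries), or for 3 days and then water for 2 days (T5, 4 libraries). The controls (CTRL, 5 libraries) had no DSS, and all groups were of the same strain. Ages and sexes are not stated in the labels, which also do not say that libraries of a group came from separate mice, so the p-values measure the spread between libraries, which may be technical. The list was drawn up with T1 values of several of its members known. The difference between T1 and CTRL is therefore described and not tested, and the same holds for T3 against T1.

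Oncostatin M binds a receptor made of OSMR and gp130, the product of Il6st. The receptor's JAK kinases phosphorylate STAT3, which enters the nucleus and switches on genes that hold its motif, among them SOCS3, which then blocks the JAKs. Bacterial products and interleukin-1 act through NF-kB, which is held in the cytoplasm by the inhibitor encoded by Nfkbia and which itself induces that inhibitor. Both routes meet with C/EBP factors at the acute phase genes, which are known above all from liver but are also induced in endothelium, epithelium and glia during inflammation. In the brain, Lcn2 is among the genes commonly induced in vessels and choroid plexus after systemic inflammation.

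The proximal promoters of members with known inputs are shown because they carry the motifs of the factors named above. The windows run from 250 bases before to 50 bases after the RefSeq start of the gene on GRCm38.p6, 5′ to 3′ on the gene's own strand, and capitals mark the motif matches. Socs3 is at chr11:117969317-117969616 on the minus strand, and its capitals mark the STAT motif TTCNNNGAA. Steap4 is at chr5:7960222-7960521 on the plus strand, and its capitals mark a pair of kappaB motifs, the STAT motif and the C/EBP motif TTGCNNAA, in that order. Lcn2 is at chr2:32387690-32387989 on the minus strand, with a C/EBP motif. Nfkbia is at chr12:55492598-55492897 on the minus strand, with a kappaB motif of NF-kB.
Socs3: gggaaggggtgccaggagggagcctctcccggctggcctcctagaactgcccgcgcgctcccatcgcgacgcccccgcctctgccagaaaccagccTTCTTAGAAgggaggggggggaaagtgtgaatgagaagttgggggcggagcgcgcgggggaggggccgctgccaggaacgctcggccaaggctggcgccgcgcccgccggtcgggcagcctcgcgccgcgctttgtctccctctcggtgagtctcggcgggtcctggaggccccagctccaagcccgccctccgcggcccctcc
Steap4: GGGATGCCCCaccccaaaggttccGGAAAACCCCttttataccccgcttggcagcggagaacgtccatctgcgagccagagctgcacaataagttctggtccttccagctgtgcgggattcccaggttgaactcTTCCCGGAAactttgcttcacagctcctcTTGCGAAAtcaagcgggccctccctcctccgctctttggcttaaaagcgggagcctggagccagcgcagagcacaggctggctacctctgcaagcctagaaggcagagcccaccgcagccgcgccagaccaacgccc
Lcn2: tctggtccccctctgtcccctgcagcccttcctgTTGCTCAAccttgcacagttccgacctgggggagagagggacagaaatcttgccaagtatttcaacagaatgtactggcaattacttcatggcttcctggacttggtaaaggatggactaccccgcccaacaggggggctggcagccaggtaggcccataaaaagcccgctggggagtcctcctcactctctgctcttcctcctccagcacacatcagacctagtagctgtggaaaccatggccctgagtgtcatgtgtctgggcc
Nfkbia: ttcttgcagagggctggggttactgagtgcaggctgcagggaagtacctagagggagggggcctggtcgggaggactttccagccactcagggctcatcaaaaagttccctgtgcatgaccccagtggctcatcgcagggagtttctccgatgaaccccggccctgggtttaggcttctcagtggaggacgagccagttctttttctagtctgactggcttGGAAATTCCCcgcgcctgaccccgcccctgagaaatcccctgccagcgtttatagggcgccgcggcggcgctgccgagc

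Promoter windows were found for 8 of the 9 genes, all but Cebpd, and both strands were searched. Counted from the start of the gene to the motif's first base, the STAT motif stood at -154 in Socs3 and at -116 in Steap4, whose C/EBP motif was at -87. The C/EBP motif stood at -216 in Lcn2 and at -99 in Saa3. The kappaB motif stood at -29 in Nfkbia and at -250 and -226 in Steap4, and Osmr held the AP-1 motif TGANTCA at 3 bases after the start. No searched motif was found in the windows of Lrg1 and Stat3. Of 32851 promoter windows of the same 300 bases, 8.3% held the STAT motif, 10.8% the C/EBP motif, 7.81% the AP-1 motif and 8.46% the kappaB motif, so these matches are a description of the letters and not of binding.

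Library totals were 8875921 to 23555242 counts in T1, 10881890 to 26839417 in T3, 12477553 to 19928986 in T5 and 16021690 to 25854664 in CTRL. The 11 markers of choroid plexus epithelium, which include Ttr, summed to 98366 to 223639 CPM (read counts scaled to library size by TMM) in T1, 113147 to 190779 in T3, 140344 to 216097 in T5 and 135982 to 203706 in CTRL. The tissue label therefore had its markers in every library. Markers of brain cells varied more between libraries, also within groups. The 8 oligodendrocyte markers summed to 294 to 9098 CPM in T1, 163 to 965 in T3, 433 to 16323 in T5 and 91.0 to 6963 in CTRL. The 8 neuronal markers summed to 96.7 to 342 CPM in T1, 22.9 to 402 in T3, 64.6 to 553 in T5 and 15.9 to 110 in CTRL. The titles carry running numbers, and the 4 libraries numbered 28 or above are T1 replicates 2, 3 and 4 and T3 replicate 4. What the numbers stand for is not given, so the log2 fold changes of the members in T1 are also given without these 4, which leaves T1 replicate 1 alone in its group.

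T1 replicate 3 stood apart from the other 16 libraries. Growth hormone (Gh) had 3742 CPM there, against at most 24.5 in any other library, prolactin (Prl) 269 CPM against at most 2.19, and Pomc 83.1 CPM against at most 2.62. Of 11 pituitary hormone and lineage genes listed after this was seen, 10 were highest in that library and Lhb had no read in any. Their sum was 4134 CPM, against 0.757 to 28.99 CPM in the other libraries, and made 0.46% of that library's counts. The venular chemokine receptor gene Ackr1 was also high there, at 31.7 CPM against at most 1.46, as was the monocyte chemokine Ccl2, at 8.29 CPM against at most 3.09. Markers of neutrophils, 13 genes, summed to 58.9 CPM in T1 replicate 3, with all 13 detected, and to 0.925 to 33.2 CPM elsewhere. Those of endothelium, 12 genes, summed to 562 CPM in it and to 122 to 472 CPM elsewhere, and those of border macrophages, 10 genes, to 195 CPM in it and to 49.4 to 172 CPM elsewhere. The part of these transcripts in the values of the members was not tested, and the T1 log2 fold changes of the members are given with and without this library.

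The same library was the highest of the 17 for 8 of the 9 members, Nfkbia being the exception. Over all 16851 genes tested it was the highest for 9.82%. The list was chosen with some of these values known, so nothing is read from the share.

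**Figure D1:**
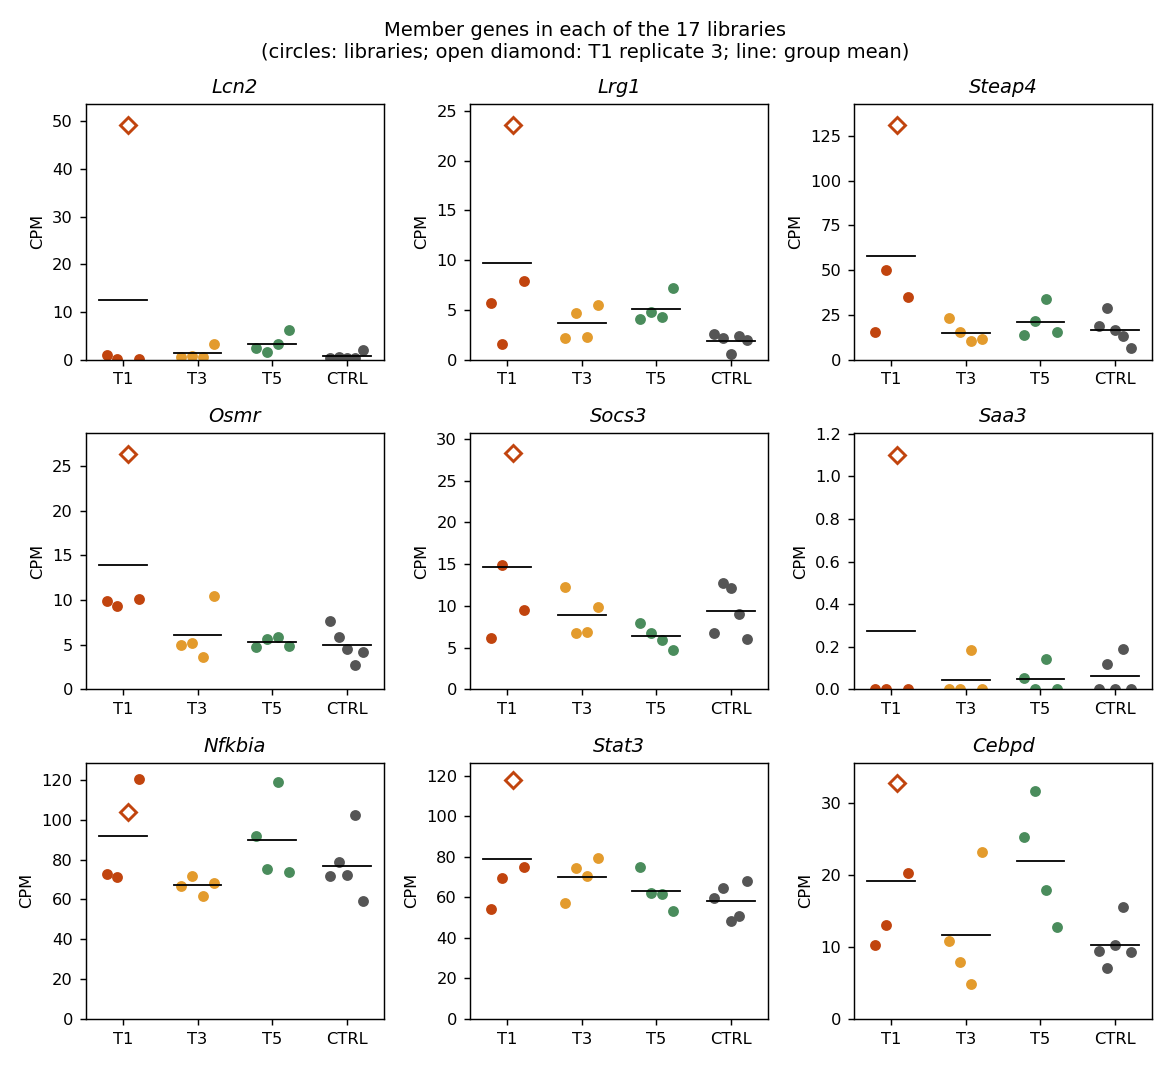
TMM-normalised CPM (y axis, from 0) of each member in the 17 libraries, by group (x axis; T1, T3 and T5 with 4 libraries each, CTRL with 5). Circles are libraries, the open diamond is T1 replicate 3 and lines are group means; the diamond is the highest point in every panel except that of Nfkbia, and in Lcn2 it lies at 49.2 CPM with every other library at or under 6.16 CPM.

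Osmr (ENSMUSG00000022146, chr15:6813577-6874969, GRCm38, minus strand) encodes the oncostatin M receptor chain that pairs with gp130. It had 9.90, 9.37, 26.4 and 10.1 CPM in T1, 5.01, 5.23, 3.61 and 10.4 CPM in T3, 4.69, 5.67, 5.89 and 4.83 CPM in T5, and 7.62, 5.81, 4.54, 2.71 and 4.21 CPM in CTRL. All T1 libraries lay above all CTRL libraries, which was so for no other member, while T3 and T5 overlapped with CTRL. In T1 the group mean was 13.9 ± 8.29 CPM, against 4.98 ± 1.85 CPM in CTRL (SD, n = 4 and 5). The log2 fold change was 1.48 ± 0.36 (SE) with T1 replicate 3, 0.98 ± 0.33 without it, and 0.97 ± 0.41 without the 4 libraries numbered 28 or above. T3 replicate 4, which is among the libraries numbered 28 or above, had the highest Osmr of T3.

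Stat3 (ENSMUSG00000004040, chr11:100885098-100939540, minus strand) encodes the transcription factor that carries the signal to the nucleus. It had 54.1, 69.3, 118 and 74.9 CPM in T1, 57.1, 74.5, 70.3 and 79.2 CPM in T3, 75.1, 62.2, 61.9 and 53.4 CPM in T5, and 59.7, 64.8, 48.4, 50.6 and 68.1 CPM in CTRL. The groups overlapped, and T1 without its replicate 3 lay between 54.1 and 74.9 CPM. The log2 fold change in T1 was 0.44 ± 0.18 (SE) with that library, 0.19 ± 0.16 without it, and -0.13 ± 0.22 without the 4 libraries numbered 28 or above. The annotation of Stat3 overlaps that of Stat5a on the opposite strand, and the strand setting of the counting is not given, so reads of the shared stretch cannot be told apart.

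Socs3 (ENSMUSG00000053113, chr11:117966079-117970047, minus strand), the feedback inhibitor of the JAK kinases, had 6.12, 14.9, 28.3 and 9.47 CPM in T1 and 12.2, 6.71, 6.89 and 9.89 CPM in T3. It had 7.99, 6.69, 5.96 and 4.71 CPM in T5 and 6.78, 12.7, 12.1, 9.005 and 6.06 CPM in CTRL. All groups overlapped, and the 4 T5 libraries all lay under the CTRL mean of 9.34 ± 3.03 CPM (SD, n = 5). In T1 the log2 fold change was 0.66 ± 0.35 (SE), 0.14 ± 0.31 without replicate 3, and -0.63 ± 0.47 without the 4 libraries numbered 28 or above.

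Nfkbia (ENSMUSG00000021025, chr12:55489410-55492647, minus strand) encodes IkappaB-alpha, the inhibitor that NF-kB induces against itself. It had 72.6, 71.4, 104 and 121 CPM in T1, 66.7, 72.0, 61.6 and 68.1 CPM in T3, 91.9, 75.2, 119 and 73.8 CPM in T5, and 71.8, 79.0, 72.5, 102 and 59.2 CPM in CTRL. T1 replicate 4 and T5 replicate 3 were the highest libraries, and T3 was the narrowest group, with a mean of 67.1 ± 4.26 CPM (SD, n = 4). In T1 the log2 fold change was 0.26 ± 0.18 (SE) with replicate 3, 0.21 ± 0.20 without it, and -0.10 ± 0.27 without the 4 libraries numbered 28 or above.

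Cebpd (ENSMUSG00000071637, chr16:15887286-15891031, plus strand) encodes C/EBP-delta, a transcription factor induced by STAT3 and NF-kB that acts on acute phase promoters. It had 10.3, 13.03, 32.8 and 20.3 CPM in T1, 10.9, 7.87, 4.89 and 23.2 CPM in T3, 25.3, 31.7, 17.9 and 12.8 CPM in T5, and 9.37, 7.10, 10.3, 15.5 and 9.31 CPM in CTRL. The 4 T5 libraries all lay above the CTRL mean of 10.3 ± 3.12 CPM (SD, n = 5), and CTRL replicate 4 lay above the lowest of them. In T1 the log2 fold change was 0.89 ± 0.42 (SE), 0.51 ± 0.42 without replicate 3, and -0.01 ± 0.49 without the 4 libraries numbered 28 or above. Cebpd overlaps Spidr on the opposite strand, with the same limit on counting.

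Lcn2 (ENSMUSG00000026822, chr2:32384633-32388252, minus strand) encodes lipocalin 2, a secreted protein that binds bacterial siderophores and so withholds iron. It had 0.918, 0.204, 49.2 and 0.182 CPM in T1, from 9, 5, 759 and 2 reads. T3 had 0.482, 0.814, 0.548 and 3.38 CPM, T5 2.50, 1.57, 3.19 and 6.16 CPM, and CTRL 0.339, 0.645, 0.336, 0.441 and 2.02 CPM. Replicate 3 held nearly all T1 reads of Lcn2, while replicates 2 and 4 were the lowest libraries of all 17. The log2 fold change in T1 was 4.06 ± 1.35 (SE) with replicate 3 and -0.86 ± 0.85 without it, so its direction rested on that library. Without the 4 libraries numbered 28 or above it was 0.26 ± 0.97. The highest T5 library, replicate 4, had the lowest neutrophil marker sum of T5 (2.97 CPM of 2.97 to 12.1), and the highest CTRL library, replicate 5, had the highest of CTRL (33.2 CPM of 0.925 to 33.2). The highest T1 library, replicate 3, had the highest neutrophil marker sum of T1 (58.9 CPM of 4.18 to 58.9). In T3 the highest library, replicate 4, also had the highest sum (14.8 CPM of 4.46 to 14.8). The part of neutrophils in these values was not tested.

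Lrg1 (ENSMUSG00000037095, chr17:56119678-56122001, minus strand) encodes leucine-rich alpha-2-glycoprotein, an acute phase protein also made by endothelium. It had 5.71, 1.63, 23.6 and 7.92 CPM in T1, 2.22, 4.73, 2.24 and 5.48 CPM in T3, 4.05, 4.803, 4.26 and 7.15 CPM in T5, and 2.54, 2.18, 0.547, 2.39 and 1.96 CPM in CTRL. All 4 T5 libraries lay above all 5 CTRL libraries, while T1 and T3 overlapped with CTRL through their lowest libraries. In T1 the log2 fold change was 2.34 ± 0.58 (SE) with replicate 3, 1.40 ± 0.50 without it, and 1.56 ± 0.58 without the 4 libraries numbered 28 or above, where 1 T1 library is left.

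Steap4 (ENSMUSG00000012428, chr5:7960457-7982213, plus strand) encodes a metalloreductase that reduces iron and copper. It had 15.7, 50.01, 131 and 35.2 CPM in T1, 23.2, 15.7, 10.3 and 11.6 CPM in T3, 13.5, 21.5, 34.1 and 15.6 CPM in T5, and 18.9, 28.9, 16.8, 13.4 and 6.28 CPM in CTRL. T1 replicates 2, 3 and 4 lay above all CTRL libraries and replicate 1 lay within them. The log2 fold change in T1 was 1.78 ± 0.53 (SE) with replicate 3 and 1.01 ± 0.45 without it. Without the 4 libraries numbered 28 or above, which leaves T1 replicate 1 alone, it was -0.13 ± 0.70.

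Saa3 (ENSMUSG00000040026, chr7:46711998-46715700, minus strand) encodes serum amyloid A3, an acute phase protein made outside the liver. T1 replicate 3 had 17 reads (95% exact Poisson interval 9.90 to 27.2, for counting error only), or 1.10 CPM. The other 16 libraries had 13 reads together and at most 4 in any, and 11 libraries had none. The limit that a count of 0 allows, 3 reads, came to at most 0.306 CPM in any of the other 16 libraries. No fold change is given for Saa3.

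Per kilobase of exon, Nfkbia was the highest member in CTRL, at 47.8 ± 9.83 CPM per kb (SD, n = 5), and stood apart from Stat3 at 6.12 ± 0.909. Stat3 did not differ beyond its spread from Steap4, at 5.34 ± 2.62, nor Steap4 from Socs3, at 3.23 ± 1.05, nor Socs3 from Cebpd, at 2.75 ± 0.834. Lrg1, at 1.37 ± 0.569 CPM per kb, was followed by Osmr at 0.411 ± 0.152. Lcn2, at 0.288 ± 0.273, lay within the spread of Osmr, and Saa3, at 0.024 ± 0.034, within that of Lcn2. These levels use the exons of all GENCODE isoforms, so they are low for genes with long rare exons.

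After 1 day of DSS, the 8 tested members had positive log2 fold changes against CTRL, from 0.26 in Nfkbia to 4.06 in Lcn2, with a median of 1.19, against 0.08 over all 16851 genes, of which 57.7% were positive. Without T1 replicate 3, 7 of the 8 were still positive and Lcn2 was not, and the median was 0.36, against 0.07 over the 17218 genes then tested. Osmr was the 1 member with non-overlapping groups, and 2.9% of all genes had every T1 library above every CTRL library. In edgeR's quasi-likelihood fit no gene passed an adjusted p of 0.05 (0% of all genes), and 21.1% had an unadjusted p under 0.05. Endothelial markers moved with these values: 12 of 12 had positive log2 fold changes with a median of 1.11, none past an adjusted p of 0.05, and their sum was 232 to 562 CPM in T1, against 122 to 275 CPM in CTRL. With the mean endothelial marker level in the model the log2 fold change was 1.42 ± 0.76 (SE) in Lrg1, 0.83 ± 0.81 in Steap4 and 0.63 ± 0.38 in Osmr, Lcn2 had 2.12 ± 2.45 and Stat3 0.03 ± 0.22, and Socs3, Nfkbia and Cebpd turned to -0.01, -0.10 and -0.28. Markers of other cells also moved with these values: the log2 fold change was positive for 8 of 8 neuronal markers (median 1.96), 9 of 9 mural cell markers (median 1.19), 10 of 10 border macrophage markers (median 0.77), 7 of 7 tested fibroblast markers (median 0.62) and 5 of 6 tested neutrophil markers (median 1.24), none past the adjusted threshold. Without T1 replicate 3 these medians were 2.04, 1.01, 0.44, 0.62 and -1.09 (3 of 7 neutrophil markers positive), and that of the endothelium was 0.91. With the mean level of astrocyte, oligodendrocyte and neuron markers in the model, the T1 log2 fold change was 3.56 ± 1.42 (SE) in Lcn2, 2.03 ± 0.59 in Lrg1, 1.88 ± 0.61 in Steap4, 1.29 ± 0.37 in Osmr and 0.85 ± 0.38 in Socs3. It was 0.56 ± 0.41 in Cebpd, 0.36 ± 0.19 in Stat3 and 0.16 ± 0.19 in Nfkbia. The part of these cells in the result was not tested beyond this. In bulk tissue, fewer cells of a type and less RNA per cell cannot be told apart.

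**Figure D2:**
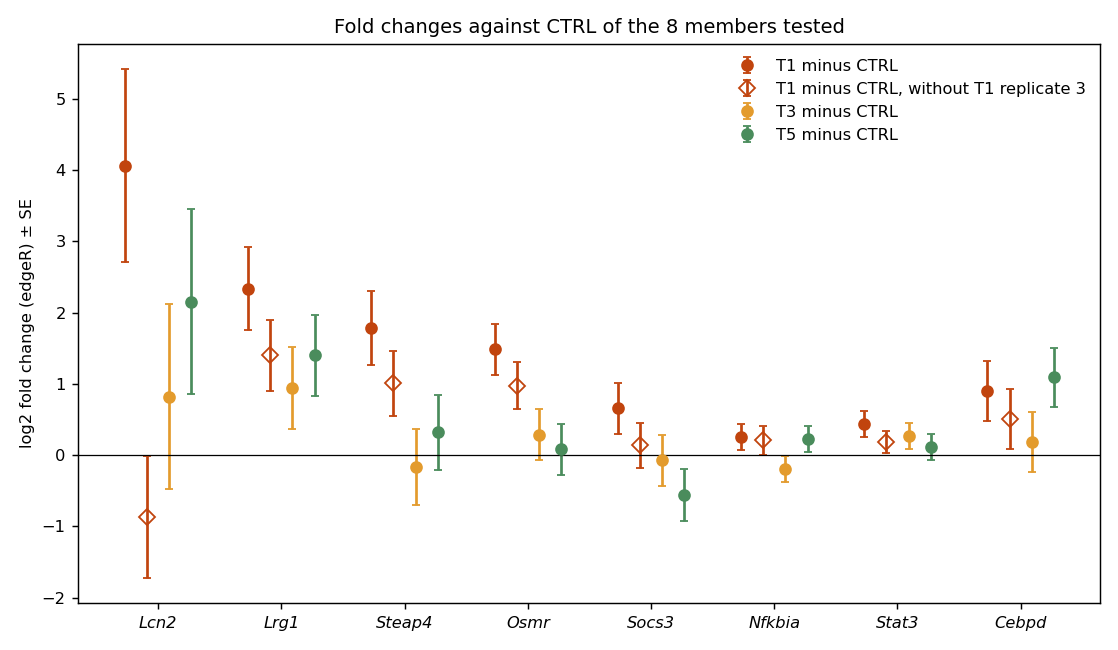
Log2 fold change against CTRL (y axis, edgeR, with approximate SE bars) of the 8 members tested (x axis), for T1, for T1 without its replicate 3 (open diamonds), for T3 and for T5. In T1, Lcn2 lies at 4.06 with replicate 3 and at -0.86 without it, Lrg1 at 2.34 with it and 1.40 without it, and the T3 values of all members lie under 1.

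After 3 days of DSS, no member differed from CTRL beyond the spread between libraries. The log2 fold change was 0.94 ± 0.57 (SE) in Lrg1, where the group means were 3.67 ± 1.69 CPM in T3 and 1.92 ± 0.801 CPM in CTRL (SD, n = 4 and 5; edgeR adjusted p = 0.911). Lcn2 had 0.82 ± 1.29, which was -0.26 without T3 replicate 4, the library with the highest Lcn2 of T3. Osmr had 0.29 ± 0.36 (-0.12 without that library), Stat3 0.27 ± 0.18, Cebpd 0.19 ± 0.42 (-0.40 without it), Socs3 -0.07 ± 0.36, Steap4 -0.16 ± 0.53 and Nfkbia -0.20 ± 0.18. The edgeR adjusted p-values of the 8 members ran from 0.911 to 0.978. None had an unadjusted p under 0.05, against 4.97% of all genes, and limma-voom called none. DESeq2 called none of the 7 for which it gave an adjusted p; it gave none for Lcn2 in any comparison. No member had all T3 libraries above all CTRL libraries, against 0.783% of all genes. Of the 8, 5 were positive, against 52.7% of all genes, and the median over the members was 0.23, against 0.02 over all genes. Markers of other cells also moved in T3: 0 of 8 oligodendrocyte (median -2.74) and 0 of 7 ependymal markers (median -0.80) were positive. In contrast, 7 of 8 neuronal (median 1.13), 7 of 7 tested fibroblast (median 0.80) and 9 of 10 border macrophage markers (median 0.50) were positive. None passed the adjusted threshold, and the part of these cells was not tested.

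After the 2 days on water, Lrg1, Cebpd and Lcn2 had the largest log2 fold changes of the members against CTRL, and none passed the adjusted threshold. Lrg1, the acute phase glycoprotein, averaged 5.07 ± 1.43 CPM in T5 and 1.92 ± 0.801 CPM in CTRL (SD, n = 4 and 5). Its log2 fold change was 1.40 ± 0.57 (SE), with an edgeR p of 0.0258 and an adjusted p of 0.604 over all genes. The groups did not overlap, which was so, in the higher direction, for 0.985% of all genes and for no other member. Cebpd averaged 21.9 ± 8.27 CPM in T5 and 10.3 ± 3.12 CPM in CTRL. Its log2 fold change was 1.09 ± 0.42 (SE), with an edgeR p of 0.0199 and an adjusted p of 0.601. Lcn2 averaged 3.36 ± 1.98 CPM in T5 and 0.756 ± 0.717 CPM in CTRL, and the log2 fold change was 2.15 ± 1.29 (SE; edgeR adjusted p = 0.726). Its 4 T5 libraries all lay above 4 of the 5 CTRL libraries, and CTRL replicate 5 lay above the lowest of them.

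The other 5 members had smaller log2 fold changes in T5. Steap4 had a log2 fold change of 0.32 ± 0.52 (SE), Nfkbia 0.23 ± 0.18, Stat3 0.12 ± 0.18, Osmr 0.08 ± 0.36 and Socs3 -0.56 ± 0.36, with edgeR adjusted p-values from 0.753 to 0.978. Over the 8 members 7 were positive, against 54.5% of all genes, and the median was 0.27, against 0.02. At an unadjusted p under 0.05 edgeR had 2 members, Lrg1 and Cebpd, and 7.83% of all genes. At an adjusted p under 0.05 it had none, of members or of genes (0% of 16851), and limma-voom called no member, nor did DESeq2 among the 7 with an adjusted p, Lcn2 having none. T5 and T3 are compared with the same CTRL libraries, and T1 as well, so the columns of fold changes are not independent of each other. The members were chosen with T1 values and earlier results of these data known. The member p-values and shares in T3 and T5 are therefore not free of that choice, and nothing is concluded from them. Markers of other cells also moved in T5: 8 of 8 microglial markers had positive log2 fold changes (median 0.70), 10 of 10 border macrophage markers (median 0.59) and 8 of 8 neuronal markers (median 1.70), none past the adjusted threshold. With the mean level of astrocyte, oligodendrocyte and neuron markers in the model, the log2 fold change was 0.80 ± 0.40 (SE) in Cebpd, 1.17 ± 0.57 in Lrg1 and 1.84 ± 1.30 in Lcn2. With the mean endothelial marker level in the model instead, it was 0.67 ± 0.34 (SE) in Cebpd, 1.23 ± 0.55 in Lrg1 and 1.68 ± 1.42 in Lcn2. Whether these cells account for the values was not tested beyond this.

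Between T5 and T3, a comparison without CTRL, Nfkbia was the member whose groups did not overlap. Its mean was 89.99 ± 21.1 CPM in T5 and 67.1 ± 4.26 CPM in T3 (SD, n = 4 each), and the log2 fold change was 0.42 ± 0.19 (SE) with an edgeR p of 0.0418 and an adjusted p of 0.457. All T5 libraries lay above all T3 libraries for 3.04% of all genes, and 10.5% of genes had an unadjusted p under 0.05. Cebpd, at 0.90 ± 0.45, had an edgeR p of 0.0610 and an adjusted p of 0.489. Without T3 replicate 4, the highest T3 library for Cebpd and Lcn2, Cebpd had 1.49 ± 0.41 with an edgeR adjusted p of 0.295, Lcn2 2.40 ± 1.57 and Nfkbia 0.43 ± 0.21. With that library Lcn2 had 1.33 ± 1.34, Steap4 0.49 ± 0.56, Lrg1 0.46 ± 0.60, Stat3 -0.16 ± 0.19, Osmr -0.21 ± 0.38 and Socs3 -0.49 ± 0.38. No member was called by edgeR or limma-voom, nor by DESeq2 among the 7 with an adjusted p (Lcn2 had none), in this comparison, in which the median of the members was 0.44 and that of all genes 0.01. Cell markers differed too, none past the adjusted threshold. Positive were 8 of 8 oligodendrocyte (median 3.65), 7 of 8 astrocyte (median 1.51) and 7 of 7 ependymal markers. Of 9 mural cell markers 3 were, and of 11 epithelial markers 3. With the brain markers in the model, Nfkbia had 0.32 ± 0.20 (SE) and Cebpd 0.67 ± 0.41. With the endothelial markers instead, they had 0.34 ± 0.18 and 0.81 ± 0.34. The part of these cells was not tested beyond this.

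Set against T1, the 8 members were lower in T3, with log2 fold changes from -0.17 in Stat3 to -3.24 in Lcn2 and a median of -0.96, against -0.02 over all genes, of which 48% had a positive value. edgeR called 0% of all genes here. Without T1 replicate 3, 2 of the 8 were positive, Lcn2 at 1.65 and Stat3 at 0.07, and the median was -0.37. Lrg1 was -1.39 with that library and -0.48 without it, Socs3 -0.73 with it and -0.22 without it, Cebpd -0.71 with it and -0.34 without it, and Nfkbia -0.46 with it and -0.41 without it. Steap4 and Osmr were -1.18 and -0.71 without it. Cell markers differed as well: 1 of 12 endothelial (median -0.90) and 0 of 8 oligodendrocyte markers (median -3.27) were positive. Of 11 epithelial markers, 10 were (median 0.11). With the endothelial markers in the model, Osmr had -0.50 ± 0.37 (SE), Lrg1 -0.59 ± 0.74 and Steap4 -0.97 ± 0.84. Stat3 and Cebpd were then 0.18 and 0.14. With the brain markers instead, values ran from -0.07 in Stat3 to -2.78 in Lcn2. The part of these cells was not tested beyond this. These values share the T1 libraries that the list was chosen from, and are given as a description.

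**Figure D3:**
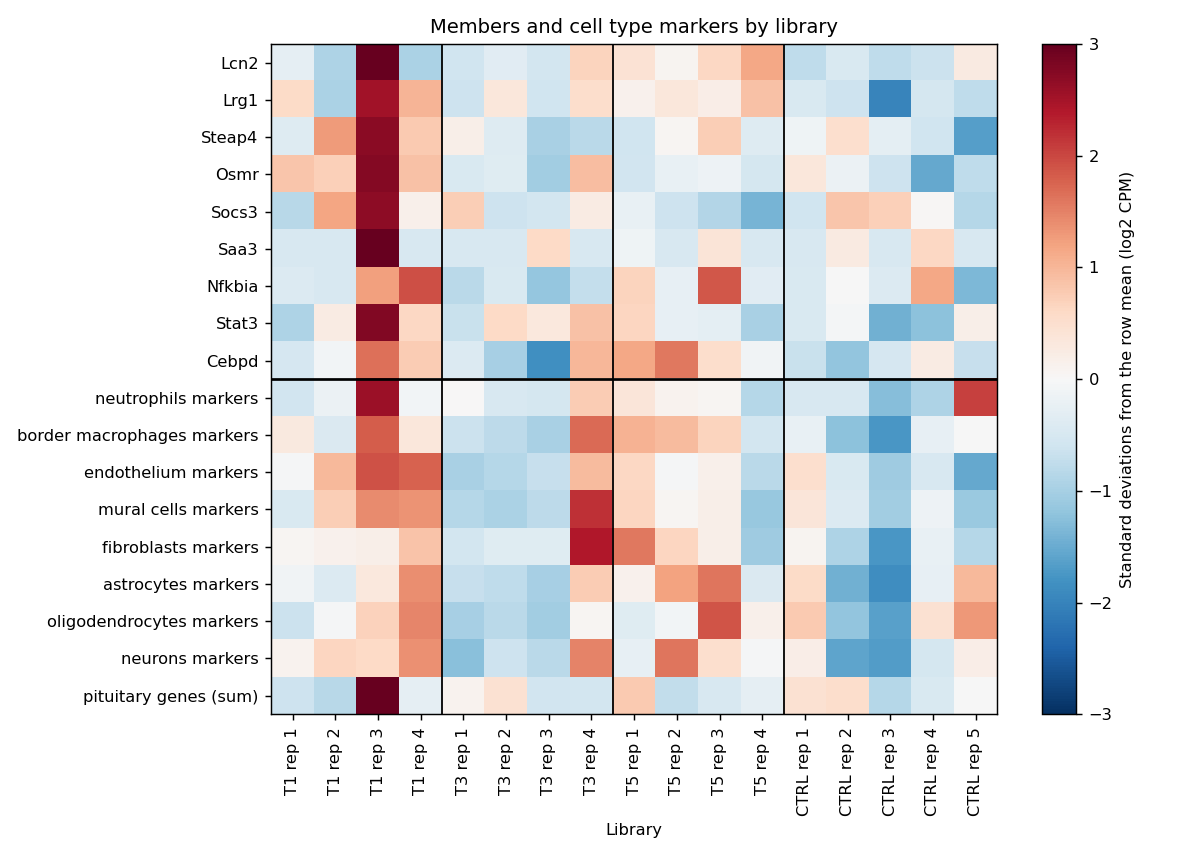
Standard deviations from the row mean (colour, on log2 CPM) of the 9 members (upper rows), of cell type marker means and of the summed pituitary genes (lower rows) in the 17 libraries (columns). T1 replicate 3 is the reddest column in 8 of the 9 member rows and in the rows of neutrophil, endothelium and border macrophage markers and pituitary genes. The rows in which T3 replicate 4 is red include Cebpd, Osmr, Lcn2 and Stat3. They also include those of mural cells, fibroblasts, border macrophages, neurons and endothelium.

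The rest of the pathway was read from lists of genes by role. None of their genes passed an adjusted p of 0.05 in edgeR in any comparison. Of all tested genes, 57.7% were positive in T1, 52.7% in T3 and 54.5% in T5, with medians of 0.08, 0.02 and 0.02. T1 replicate 3 was known to stand apart when the lists were made. Nothing is therefore read from how many of their genes were highest in it. The T1 values in the paragraphs on these lists include T1 replicate 3; without it, 9 of 14 other STAT3 targets, 10 of 15 NF-kB genes, 7 of 8 receptors and 6 of 7 acute phase genes were positive, with medians of 0.10, 0.18, 0.70 and 1.13. Of 9 ligands of the interleukin-6 family, 6 did not pass the filter on low counts, among them Osm and Il6, and their highest value in any library was 0.465 CPM (Lif). Osm itself had 9 reads in T1, 9 in T3, 2 in T5 and 10 in CTRL, over all libraries of each group. Ctf1, which encodes cardiotrophin 1, was the abundant one, at 38.6 ± 6.32 CPM in T1, 47.7 ± 13.03 in T3, 51.1 ± 5.38 in T5 and 53.3 ± 8.05 CPM in CTRL (SD). Its log2 fold change was -0.16 in T3 and -0.06 in T5, and the 3 tested ligands (Ctf1, Il11 and Clcf1) had negative values at both times, with medians of -0.21 in T3 and -0.86 in T5. In T1, 1 of these 3 ligands was positive, and the median was -0.47 (-0.39 without T1 replicate 3).

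The 8 other receptor genes of the family had positive log2 fold changes in 7 of 8 cases in T1, 4 in T3 and 6 in T5, with medians of 0.78, -0.02 and 0.20. Il6st, which encodes the shared chain gp130, averaged 110 ± 22.4 CPM in T1, 90.7 ± 34.0 in T3, 78.5 ± 8.31 in T5 and 63.5 ± 4.95 CPM in CTRL (SD). Its log2 fold change in T3 was 0.52 ± 0.19 (SE) with an edgeR p of 0.0126 and an adjusted p of 0.911, and the highest of the 17 libraries was T3 replicate 4, at 140.2 CPM. Il11ra1, the interleukin-11 receptor, had 108 ± 12.8 CPM in T5 and 100.1 ± 10.1 CPM in CTRL, and Lifr, the receptor of leukemia inhibitory factor, had 10.4 ± 4.33 CPM in T5 and 9.01 ± 3.60 CPM in CTRL. Of the JAK kinases and other STATs, 9 of 10 were tested, and 8, 7 and 5 of them were positive in T1, T3 and T5, with medians of 0.23, 0.12 and 0.07. Jak1, the kinase that gp130 uses, had 101 ± 11.01 CPM in T1, 91.9 ± 7.18 in T3, 91.4 ± 14.5 in T5 and 77.1 ± 4.37 CPM in CTRL.

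The 7 other SOCS genes, inhibitors of cytokine signalling, had 2, 2 and 4 positive log2 fold changes in T1, T3 and T5 and medians of -0.10, -0.16 and 0.01. Cish had 72.1 ± 21.6 CPM in T1, 68.8 ± 31.8 in T3, 47.9 ± 11.6 in T5 and 76.3 ± 39.03 CPM in CTRL. Of 15 NF-kB subunits and inhibitors, 14, 10 and 6 were positive, with medians of 0.21, 0.05 and -0.01. Of these 15, 9 were highest in T1 replicate 3, against 9.82% of all genes. Among them Nfkb2, the precursor of p52, had 17.3 CPM in that library and at most 7.14 CPM in any other. Rela, Chuk and Ikbkb, the abundant members of the list, had T5 means of 62.5, 74.3 and 33.2 CPM, against 63.3, 90.5 and 32.9 CPM in CTRL.

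Of 22 other acute phase plasma protein genes, 15 did not pass the filter and reached at most 0.533 CPM in any library (Hpx). The 7 that did had positive log2 fold changes in 6, 3 and 4 cases in T1, T3 and T5, with medians of 1.13, -0.20 and 0.30. Lbp, which encodes the lipopolysaccharide binding protein, was the most abundant of them at all times, at 694 ± 122 CPM in T1, 755 ± 131 in T3, 742 ± 147 in T5 and 754 ± 197 CPM in CTRL (SD). Its log2 fold changes were -0.12, 0.00 and -0.02. Cp, the copper protein ceruloplasmin, averaged 110 ± 44.3 CPM in T1, 76.0 ± 45.4 in T3, 86.6 ± 20.5 in T5 and 70.3 ± 23.6 CPM in CTRL. Of the other C/EBP factors, 4 of 5 were tested, and 2, 1 and 4 were positive. Cebpb, the partner of Cebpd, had 34.8 ± 10.02 CPM in T5 and 29.6 ± 6.86 CPM in CTRL. Its log2 fold change was 0.23, against 1.09 in Cebpd, and this difference between the genes was not tested.

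Of the 6 genes related to Steap4 and to the siderophore protein Lcn2, 4, 2 and 2 were positive, with medians of 0.15, -0.01 and -0.08. Slc22a17, which encodes the lipocalin 2 receptor, was far above Lcn2 at 2886 ± 285 CPM in T1, 2712 ± 200 in T3, 2460 ± 487 in T5 and 2720 ± 815 CPM in CTRL (SD, not per length). Steap1 and Steap2, the sister reductases, had log2 fold changes of -0.01 and 0.30 in T3 and of -0.02 and -0.16 in T5. Of 14 other target genes of STAT3, 12, 12 and 13 were positive, with medians of 0.44, 0.25 and 0.34, against 57.7%, 52.7% and 54.5% of all genes. Of these 14, 7 were highest in T1 replicate 3, against 9.82% of all genes. Ifitm3, an antiviral membrane protein, averaged 138 ± 58.9 CPM in T5 and 86.7 ± 24.7 CPM in CTRL. Its log2 fold change was 0.68 ± 0.27 (SE) with an edgeR p of 0.0229 and an adjusted p of 0.601. Mcl1 and Gadd45g, the other abundant targets, had log2 fold changes of 0.07 and -0.18 in T5.

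**Figure D4:**
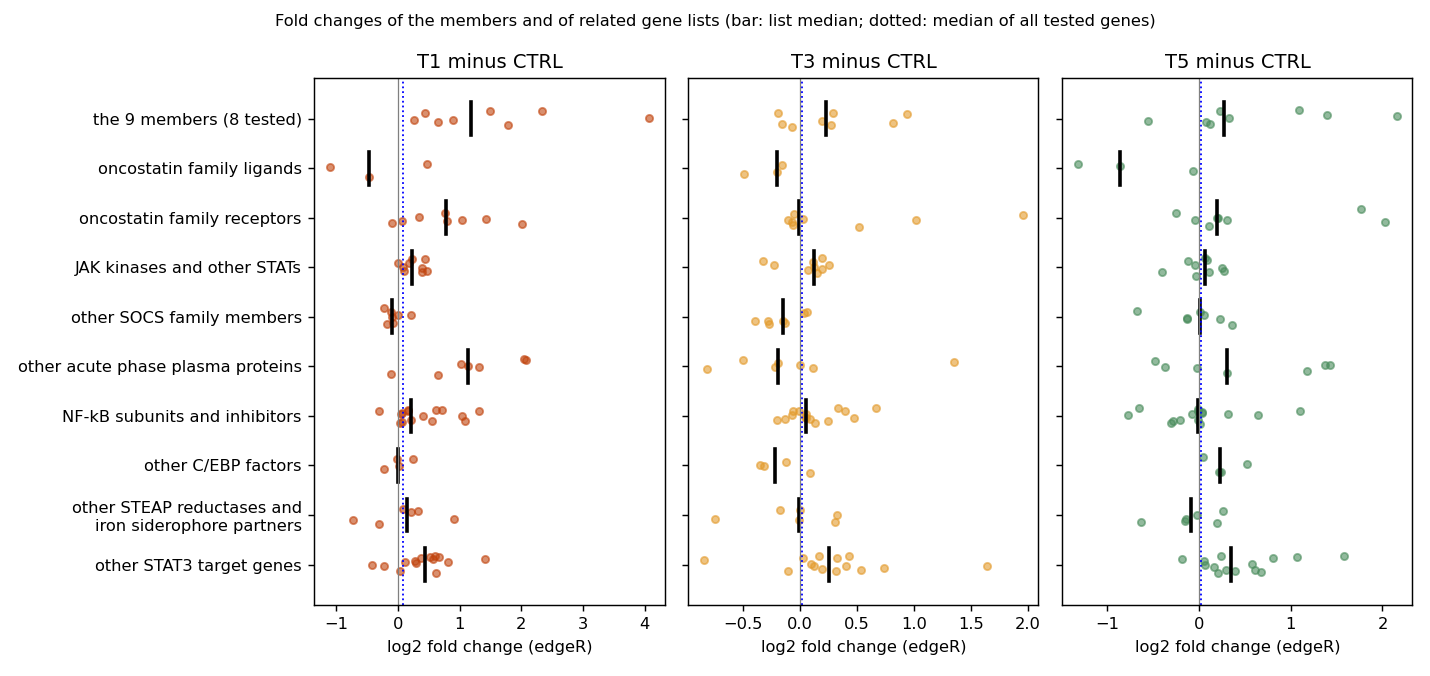
Log2 fold change (x axis, edgeR) of the tested members and of the tested genes of each pathway list (rows) against CTRL, in T1, T3 and T5 (panels). Points are genes, bars are list medians and the dotted line is the median of all 16851 tested genes; the members' median is 1.19 in T1, 0.23 in T3 and 0.27 in T5.

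The genes whose order over the 17 libraries was most like the mean profile of the members were Adgre1 (Spearman's rho = 0.92), Efnb2 (0.91), Ece1 (0.90), Nckap1l (0.89), Klf2, Susd2, Adcy5 and Dse (0.87 each), taken from 13163 candidate genes whose mean was 1 CPM or more. The 17 libraries share depth, tissue makeup and groups, so rho is a description. Adgre1, the macrophage surface gene of the F4/80 antigen, had 13.6 CPM in T1 replicate 3 and at most 13.5 CPM in any other library. Ece1, the endothelin-converting enzyme of vessels, had 38.3 CPM there and at most 29.01 CPM elsewhere. Efnb2, an ephrin of arterial endothelium, was highest in T3 replicate 4, at 19.1 CPM.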

How the data were processed

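RNA sequencing libraries of 17 choroid plexus samples were made with the SMART-Seq v4 kit from total RNA, per the labels' protocols. The authors deposited 1 table of raw counts, with Ensembl identifiers as rows and libraries as columns. Trimmomatic 0.39, STAR 2.6.1b, featureCounts 1.6.4 and the build GRCm38 are named in the submitters' processing notes; the strand setting is not given in the sources used here. PCR copies were counted as reads, so intervals cover counting error alone. Groups came from the time point labels, and replicate numbers follow accession order and pair nothing.

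Symbols, coordinates and exon lengths were taken from GENCODE M21 (GRCm38, 1-based), where 55394 of 55487 identifiers were found. Genes that passed filterByExpr (16851 of 39303 with a read) entered edgeR 4.0.16 under R 4.3.3 (TMM, 1 mean per group over all 17 libraries, robust quasi-likelihood), with Benjamini-Hochberg adjustment over all tested genes and a threshold of 0.05. The biological coefficient of variation was 37.6%. The SE was back-calculated from edgeR's F statistic and the fold change, so it is approximate. CPM are TMM-scaled, and log2 CPM for marker means and figures used a pseudocount of 0.5. Alternatives were DESeq2 1.42.0, limma 3.58.1 (voom with quality weights), RLE scaling, no filter, each library left out, the 4 libraries numbered 28 or above left out or given a term, and brain or endothelium marker covariates.

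The members, the lists and the tests were chosen with earlier results of these data known, and the pituitary list after T1 replicate 3 was seen. Named genes were the 9 members, the 8 genes nearest in pattern, and genes from among the 3 tested genes of each pathway list with the highest mean CPM. In some lists not all of these 3 were named. Gh, Prl, Pomc, Ackr1, Ccl2, Nfkb2, Osm, Lif, Hpx, Lhb and Il6 were named after their values were seen. Promoter sequences are RefSeq's, on GRCm38.p6. The edgeR fit was tested on simulated negative binomial counts with known changes in T5 against CTRL. DESeq2, limma-voom and the models with covariates were not tested in this way, and no simulated library was made extreme.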

Additional observations from a re-analysis of the deposited data

Results flagged for a closer look

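Among 36 sets of values (9 members in 4 groups), 7 held a library far from the others of its group by Dixon's rule. Chance alone would meet this rule in about 1 of 20 independent sets of normally distributed values. The rule was applied to CPM without a log scale, and the 36 sets share libraries, so that rate is only a rough guide here. That rate does not apply to the T1 sets, since T1 values of several members were known when the list was chosen, nor to the 2 Saa3 sets, in which every other library had 0 and any library with reads meets the rule. T1 replicate 3 met it in 3 members. Lcn2 was 49.2 CPM there, against 0.182 to 0.918 CPM in the other T1 libraries. Osmr was 26.4 CPM there, against 9.37 to 10.1 CPM, and Saa3 was 1.10 CPM there, against 0 in the others. Pituitary hormone transcripts were high in the same library, as described above, and their part in these values was not tested.

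Lcn2 met the rule in 2 further groups. It was 3.38 CPM in T3 replicate 4, with the rest of T3 at 0.482 to 0.814 CPM, and 2.02 CPM in CTRL replicate 5, against 0.336 to 0.645 CPM in the other controls. CTRL replicate 5 also had the highest neutrophil marker sum of the controls, at 33.2 CPM, and T3 replicate 4 the highest of T3, at 14.8 CPM. Lrg1 was low in CTRL replicate 3, at 0.547 CPM, against 1.96 to 2.54 CPM in the other controls. Saa3 was 0.183 CPM in T3 replicate 3, from 4 reads, against 0 in the other T3 libraries.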

How the results depend on the processing

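Over 25 alternatives, 956 of 1000 recomputed fold changes of members kept their sign, 44 did not, and 17 passed the threshold. Of the 25 alternatives, 17 leave out 1 library, often one in neither group compared, which hardly changes the value. The count of kept signs is therefore no measure of stability. All passes of the threshold were in T1 against CTRL or T3 against T1. No paired analysis was possible because the labels give no replicate numbers that groups share. In T1 against CTRL, edgeR called 0 genes and 0 members, DESeq2 826 genes (273 higher, 553 lower) and 1 of the 4 members with an adjusted p (none was given for Lcn2, Lrg1, Osmr and Socs3), and limma-voom 4140 genes (1997 higher, 2143 lower) and 4 members. Leaving out 1 library gave 0 to 2203 genes and 0 to 5 members (2203 and 5 without T1 replicate 1, 717 and 2 without T3 replicate 4). DESeq2 called 2 genes in T3 and 16 in T5 against CTRL, 24 in T3 against T1 and 84 in T5 against T3. In T3 against T1 limma-voom called 4130 genes and 5 members, and leaving out 1 library gave 0 to 3 genes. In T5 against T3 the endothelium covariate gave 1 gene, and leaving out 1 library 0 to 1. These member counts come from T1 values that were known when the list was chosen, so they are a description and support nothing. DESeq2 gave no adjusted p for Lcn2 in any comparison. The cause of the differences was not tested.

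Without the 4 libraries numbered 28 or above, 2 members had T1 above CTRL without overlap (18.1% of all genes), 2 had T3 above T1 (28.8%), 4 had T3 below T1 (32% of all genes) and 3 had T5 above T3 (8.76%). T1 is then 1 library, so a single value outside the other group is enough to meet this. Leaving out 1 library gave 1 to 3 members with T1 above CTRL (2.9% to 12% of all genes), 0 to 1 with T3 above CTRL (0.783% to 2.27%), 1 to 2 with T5 above CTRL (0.985% to 3.38%), 0 to 2 with T3 below T1 (1.73% to 12.6%), 1 to 3 with T5 above T3 (3.04% to 8.76%) and 0 to 1 with T5 below T3 (4.31% to 7.8%).

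The following log2 fold changes turned sign. In T1 against CTRL, without those 4 libraries, Steap4 was -0.13, Socs3 -0.63, Nfkbia -0.10, Stat3 -0.13 and Cebpd -0.014; with a term for them Socs3 was -0.070 and Cebpd -0.18; with the endothelium covariate Socs3 was -0.0088, Nfkbia -0.10 and Cebpd -0.28. In T3 against CTRL, without the 4, Lcn2 was -0.27, Osmr -0.11 and Cebpd -0.39; with the term Lcn2 was -0.47, Osmr -0.036 and Cebpd -0.33; Cebpd was -0.36 in limma-voom and -0.14 with the endothelium covariate. In T5 against CTRL, Osmr was -0.12 with the brain covariate and -0.16 with the endothelium covariate, where Stat3 was -0.027. In T3 against T1, without the 4, Steap4 was 0.072, Socs3 0.50 and Stat3 0.34; Stat3 was 0.083 with the term and 0.18 with the endothelium covariate, where Cebpd was 0.14. In T5 against T3, Osmr was 0.13 in limma-voom, 0.19 without the 4 and 0.11 with the term.

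Leaving out 1 library turned the sign of these. In T1 against CTRL, Lcn2 ran from -0.86 to 4.82. In T3 against CTRL, Lcn2 ran from -0.26 to 1.56, Steap4 from -0.43 to 0.12, Osmr from -0.12 to 0.48, Socs3 from -0.26 to 0.067 and Cebpd from -0.40 to 0.44. In T5 against CTRL, Steap4 ran from -0.0047 to 0.61 and Osmr from -0.075 to 0.28. In T3 against T1, Lcn2 ran from -4.32 to 1.65 and Stat3 from -0.31 to 0.069. In T5 against T3, Osmr ran from -0.39 to 0.19. Lrg1 in T5 against CTRL ran from 1.16 to 1.51 and Cebpd from 0.85 to 1.28 (0.80 with the brain covariate and 0.67 with the endothelium covariate), neither past the threshold in any alternative. Depth limits Saa3, with 30 reads in all, and Lcn2, with 2 to 9 reads in 7 libraries.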
